A study of Mus musculus with 12 samples.

Results

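The genes described here encode the receptor of type I interferon, kinases of the JAK family, STAT proteins, and 2 feedback inhibitors of JAK-STAT signalling. They are 9 genes: the receptor chains Ifnar1 and Ifnar2, the kinases Jak1, Jak2 and Tyk2, the transcription factors Stat2 and Stat3, and the inhibitors Socs1 and Socs3. They were found by mapping the RefSeq accession of each array probe to these symbols, which gave 12 probes (3 for Ifnar1, 2 for Stat3 and 1 for each other gene) among 55574 probes, and 9 of 15445 genes tested. All 12 probes were well above background on all 12 arrays, so that no member was lost to the filter on dim probes. For a gene with several probes, the probe with the highest mean stands for the gene.

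RNA came from mouse embryonic fibroblasts (MEFs), connective tissue cells cultured from embryos, and was measured on 12 single-colour Agilent arrays, 3 for each of 4 groups. The groups were GADD34ΔC/ΔC cells (ΔC below) given poly(I:C), untreated ΔC cells, wild-type (WT) cells given poly(I:C), and untreated WT cells. GADD34, the product of Ppp1r15a, brings a phosphatase to the translation factor eIF2α, and ΔC stands for a shortened GADD34. Poly(I:C) is an artificial double-stranded RNA that stands in for viral RNA in such experiments. The high molecular weight form was given for 6 h at 2.5 µg/ml with lipofectamine. The labels list no cells given the lipid alone, so that the lipid and poly(I:C) cannot be told apart, and they do not say how many embryos or lines stand for a genotype, so that genotype and line cannot be told apart. The series' design text gives 3 independent experiments, and arrays carry the numbers 1, 2 and 3 in each group. Arrays of 1 number are called an experiment below, although the labels do not tie the numbers to the experiments.

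Type I interferons bind a receptor made of the chains IFNAR1 and IFNAR2, on which the kinases TYK2 and JAK1 sit. The kinases phosphorylate STAT proteins, and STAT2 with IRF9 is part of the complex ISGF3, which binds the interferon-stimulated response element in the promoters of antiviral genes. STAT3, activated by interleukin 6 family cytokines and by interferons, binds a different element, the gamma-activated sequence. SOCS1 and SOCS3 are induced by such signals and block the kinases or the receptors, which closes a negative feedback loop.

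The promoters of the 3 members whose levels passed a test of treatment or genotype are shown, because these elements can be looked for in them. The sequences are from RefSeq (GRCm38.p6) and run 5′ to 3′ on the strand of the gene, from 250 bases before to 50 bases after the start that the table uses. Capitals mark matches to the core of the interferon-stimulated response element, spelled GAAA, any 2 bases and GAAA, or to the gamma-activated sequence, spelled TTCNNNGAA, each searched on both strands. The windows are chr10:128270248-128270547 on the plus strand for Stat2, chr16:10785487-10785786 on the minus strand for Socs1, and chr11:117969317-117969616 on the minus strand for Socs3.
Stat2: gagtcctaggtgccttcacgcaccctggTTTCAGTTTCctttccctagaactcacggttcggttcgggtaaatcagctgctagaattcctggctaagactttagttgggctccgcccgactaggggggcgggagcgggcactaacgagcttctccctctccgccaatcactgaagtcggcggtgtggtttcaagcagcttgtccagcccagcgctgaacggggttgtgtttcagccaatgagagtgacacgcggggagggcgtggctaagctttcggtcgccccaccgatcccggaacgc
Socs1: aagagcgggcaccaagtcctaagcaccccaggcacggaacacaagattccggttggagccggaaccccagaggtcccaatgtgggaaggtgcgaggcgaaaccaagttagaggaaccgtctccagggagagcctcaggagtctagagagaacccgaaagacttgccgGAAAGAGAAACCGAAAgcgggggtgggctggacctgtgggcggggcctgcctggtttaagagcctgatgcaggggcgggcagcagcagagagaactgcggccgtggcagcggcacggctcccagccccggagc
Socs3: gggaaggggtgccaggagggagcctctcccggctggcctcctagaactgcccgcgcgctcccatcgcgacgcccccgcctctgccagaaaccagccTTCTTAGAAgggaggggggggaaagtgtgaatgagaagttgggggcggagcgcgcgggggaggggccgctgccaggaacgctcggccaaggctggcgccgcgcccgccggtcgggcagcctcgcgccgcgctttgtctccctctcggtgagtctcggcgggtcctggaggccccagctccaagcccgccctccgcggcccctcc

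Stat2 held 1 match to the response element core, TTTCAGTTTC, which reads as the core on the opposite strand, at positions -222 to -213 from the start. Socs1 held 2 matches, GAAAGAGAAA at -83 to -74 and GAAACCGAAA at -77 to -68, which share bases and so form 1 run of capitals. Socs3 held 1 match to the gamma-activated sequence, TTCTTAGAA, at -154 to -146. All 9 members matched an entry of the promoter table. The response element core stood in the windows of 2 of the 9 (Stat2 and Socs1), against 3.44% of 32851 promoters of the same length, and the gamma-activated sequence in 3 of the 9 (Ifnar1, Ifnar2 and Socs3), against 8.3%. The windows of Jak1, Jak2, Tyk2 and Stat3 held no match to either set of letters. A match is a match of letters and no binding was measured.

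A level below is the log2 of a probe's processed intensity minus the 75th percentile of its array, so that 0 is the brightness of that percentile. Levels of different genes come from different probes and are not compared with each other. A difference is of 2 mean levels, given with its standard error (SE) and the p-value that limma gave after Benjamini-Hochberg adjustment over the 15445 genes. A gene was called where the adjusted p was under 0.05. Ppp1r15a read -4.12, -8.14 and -7.2 in ΔC cells given poly(I:C) and -7.22, -8.3 and -5.75 in untreated ΔC cells, against 5.79, 5.83 and 5.81 in WT cells given poly(I:C) and 2.65, 2.62 and 3.36 in untreated WT cells. The targeted gene thus parted the genotypes on every array, although the labels do not say whether its probe lies in the deleted stretch. Between 60.4 and 67.3% of probes were well above background on each array.

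Of 11 fibroblast markers with a probe, 9 were well above background on all 12 arrays and Lum on none. The summed fibroblast marker level, the log2 of the sum of the markers' normalized intensities, was 8.60 to 9.49 in ΔC cells given poly(I:C) and 8.61 to 9.5 in untreated ΔC cells, against 9.74 to 9.97 in WT cells given poly(I:C) and 10.04 to 10.26 in untreated WT cells. In ΔC, 3 of 10 fibroblast markers tested were called lower with poly(I:C) and 4 of 10 without it. Of 5 epithelial markers, Epcam and Cdh1 were well above background on 6 arrays, those of ΔC cells, and were called higher there with and without poly(I:C). Krt8 was lower in untreated ΔC cells (-1.91, adjusted p = 0.0118), and Krt18 and Krt19 were well above background on all 12 arrays and were not called. Of 7 leukocyte markers with a probe, 5 were well above background on all 12 arrays and Lyz2 on none, and 1 of 5 was called lower in ΔC with poly(I:C) and 3 of 5 without it. Of 5 endothelial markers, Pecam1 and Kdr were well above background on all 12 arrays with no call, and Cdh5, Tek and Emcn on none. The summed epithelial level was 2.32 to 3.34 in treated and 2.39 to 3.39 in untreated ΔC cells, against 1.57 to 2.64 in treated and 2.09 to 3.05 in untreated WT cells. No marker of the 4 lists was called in either response to poly(I:C). The part of these marker differences in the genotype differences given below was not tested. In bulk RNA, fewer cells of a type and less RNA per cell cannot be told apart.

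Stat2 and Socs1 were the members whose levels moved most, and their means were highest in WT cells given poly(I:C). With poly(I:C), Stat2 was 5.81-fold higher in ΔC cells and 19.8-fold higher in WT cells, and Socs1 was 8.42-fold higher in WT cells. Between genotypes, Socs1 and Socs3 were lower in ΔC cells after poly(I:C), and Socs3 was lower in untreated ΔC cells as well. Of 26 alternatives, 10 lost the Stat2 call in ΔC cells and 16 lost the untreated Socs3 call. With poly(I:C) the share of members called was near that of all genes called in either direction (20.9%) and above that of genes called lower (9.04%). Untreated, it was below that of all genes called in either direction (21.2%) and near that of genes called lower (10.2%). The receptor chains and Jak1, Jak2, Tyk2 and Stat3 passed in no comparison of the model without a block.

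In the response of ΔC cells, 1 of 9 members was called (Stat2, higher), against 1.84% of all genes called in either direction (1.82% higher and 0.0194% lower). In the response of WT cells, 2 of 9 were called (Stat2 and Socs1, both higher), against 6.77% of all genes (5.24% higher and 1.53% lower). Between ΔC and WT with poly(I:C), 2 of 9 were called (Socs1 and Socs3, both lower). That share is near the 20.9% of all genes called there in either direction and above the 9.04% called lower in ΔC (11.9% were called higher). Between untreated ΔC and WT, 1 of 9 was called (Socs3, lower). That share is below the 21.2% of all genes called there in either direction and near the 10.2% called lower (10.9% were called higher). For the difference between the responses (ΔC minus WT), 0 of 9 members were called by limma, against 0.0194% of all genes, with 2 members at an unadjusted p under 0.05. The comparisons share groups: each untreated and each treated group serves a response and a genotype comparison. The median difference of the 9 members was -0.07 in the ΔC response, 0.27 in the WT response, -0.24 between genotypes with poly(I:C), 0.05 between untreated genotypes and -0.34 for the difference of the responses. The same medians over all genes were -0.05, -0.14, 0.01, -0.06 and 0.07.

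**Figure D1:**
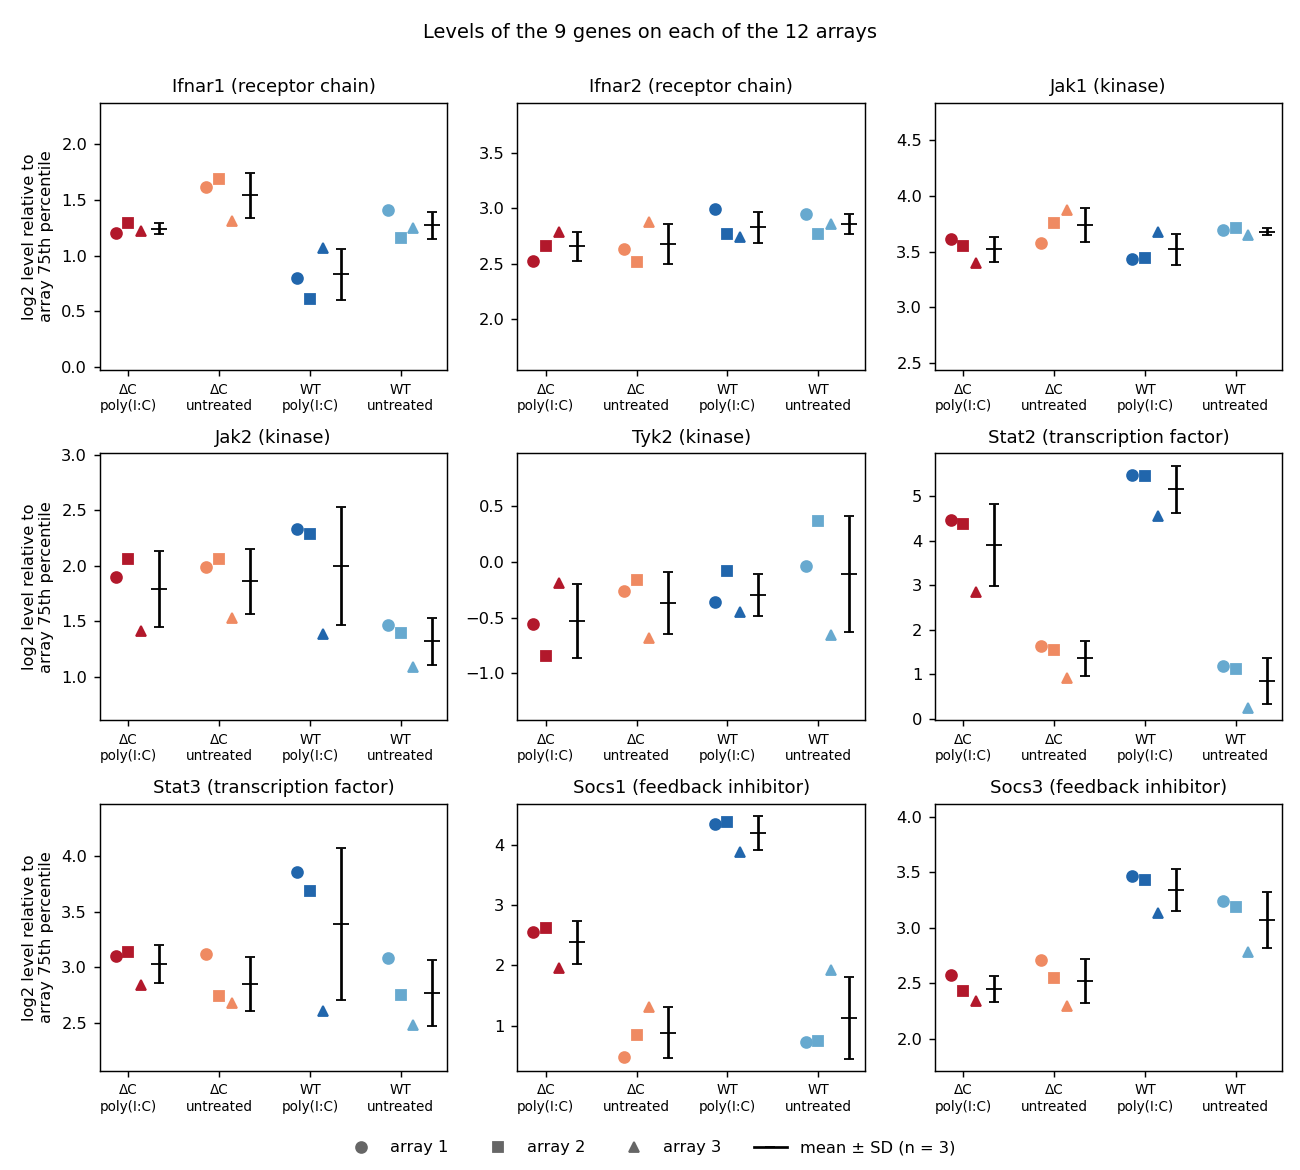
Normalized log2 level of each of the 9 genes (vertical axis) on every array, by group (horizontal axis), with the mean and SD of the 3 arrays beside the points. Each panel has its own vertical range, and symbols mark array numbers 1 to 3. For Stat2 the treated arrays lay at 2.85 to 4.46 in ΔC cells and at 4.54 to 5.47 in WT cells.

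The receptor chains passed no test. Ifnar1 ranged over 1.08 across the 12 arrays. Ifnar1, the chain that carries TYK2, read 1.20, 1.29 and 1.22 in ΔC cells given poly(I:C) and 1.62, 1.69 and 1.31 in untreated ΔC cells, against 0.80, 0.61 and 1.07 in WT cells given poly(I:C) and 1.41, 1.16 and 1.25 in untreated WT cells. Treated arrays lay below the untreated arrays in both genotypes, without overlap. Such a lack of overlap held for 17.7% of all genes in the ΔC response and for 30.6% in the WT response. The difference was -0.30 ± 0.15 in ΔC cells (adjusted p = 0.499) and -0.45 ± 0.15 in WT cells (adjusted p = 0.0939), and neither passed. With poly(I:C), ΔC minus WT was 0.41 (95% confidence interval 0.08 to 0.74, adjusted p = 0.0737), and untreated it was 0.27 (-0.06 to 0.59, adjusted p = 0.228). Without WT poly(I:C) array 3, the WT response (adjusted p = 0.0329) and the genotype difference with poly(I:C) (0.0272) passed. The other 2 Ifnar1 probes gave -0.24 and -0.19 in the ΔC response and -0.39 and -0.39 in the WT response. They gave -0.08 and -0.18 for untreated ΔC minus WT, the opposite sign to the first probe, and 0.07 and 0.02 with poly(I:C). Ifnar1 was thus lower after poly(I:C) on each of its 3 probes in each genotype, with no call, while its genotype difference was not shared by its probes.

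Ifnar2, the chain that binds JAK1 and the STAT proteins, read 2.53, 2.66 and 2.79 in ΔC cells given poly(I:C) and 2.63, 2.52 and 2.88 in untreated ΔC cells. It read 2.99, 2.77 and 2.74 in WT cells given poly(I:C) and 2.95, 2.77 and 2.86 in untreated WT cells. The 4 groups overlapped within a range of 0.47 over the 12 arrays. The 95% confidence interval of the response was -0.31 to 0.27 in ΔC cells and -0.31 to 0.26 in WT cells. That of ΔC minus WT was -0.46 to 0.12 with poly(I:C) and -0.47 to 0.11 without it.

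Jak1, the kinase bound to IFNAR2, read 3.61, 3.55 and 3.40 in ΔC cells given poly(I:C) and 3.58, 3.76 and 3.87 in untreated ΔC cells. It read 3.43, 3.44 and 3.68 in WT cells given poly(I:C) and 3.69, 3.71 and 3.65 in untreated WT cells. Its range over the 12 arrays was 0.47, like that of Ifnar2, and the groups compared overlapped. The interval of the response was -0.48 to 0.05 in ΔC cells and -0.43 to 0.10 in WT cells, and that of ΔC minus WT was -0.26 to 0.26 with poly(I:C) and -0.21 to 0.32 without it.

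Tyk2, the kinase bound to IFNAR1, read -0.56, -0.85 and -0.19 in ΔC cells given poly(I:C) and -0.26, -0.16 and -0.68 in untreated ΔC cells. It read -0.36, -0.08 and -0.45 in WT cells given poly(I:C) and -0.04, 0.37 and -0.66 in untreated WT cells. All 4 groups overlapped. The response was -0.17 ± 0.27 in ΔC cells (adjusted p = 0.867) and -0.18 ± 0.27 in WT cells (adjusted p = 0.682), and the intervals, -0.76 to 0.43 and -0.78 to 0.41, were wider than those of Jak1.

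Jak2, a kinase used by receptors for interferon gamma and many cytokines, read 1.90, 2.06 and 1.41 in ΔC cells given poly(I:C) and 1.99, 2.06 and 1.53 in untreated ΔC cells. It read 2.33, 2.29 and 1.39 in WT cells given poly(I:C) and 1.47, 1.40 and 1.09 in untreated WT cells. Untreated ΔC cells lay above untreated WT cells without overlap, which 37.2% of all genes showed in that comparison. Array 3 of the treated WT group lay among the untreated WT arrays. The response was -0.07 ± 0.27 in ΔC cells (adjusted p = 0.947) and 0.68 ± 0.27 in WT cells (adjusted p = 0.148). Untreated ΔC minus WT was 0.54 ± 0.27 (adjusted p = 0.19), and with poly(I:C) it was -0.22 (adjusted p = 0.627). Blocking the replicate number, the WT response and the untreated genotype difference of Jak2 passed (adjusted p = 0.0189 and 0.0188). Without WT poly(I:C) array 3 the WT response passed too (adjusted p = 0.0227).

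**Figure D2:**
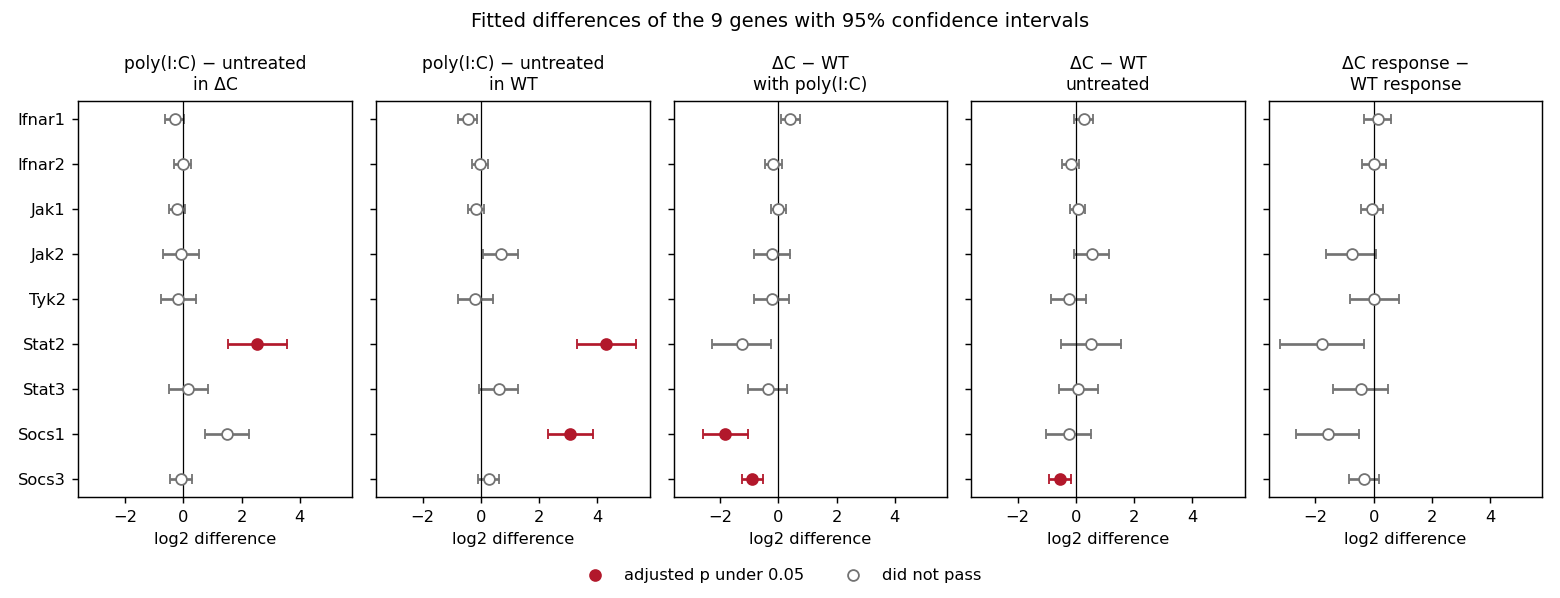
Fitted log2 difference of each of the 9 genes (horizontal axis) with its 95% confidence interval, in 5 panels for the responses in ΔC and WT, the genotype differences after poly(I:C) and in untreated cells, and the ΔC response minus the WT response. Filled points passed an adjusted p of 0.05: Stat2 in both responses, Socs1 in WT, Socs1 and Socs3 with poly(I:C), and Socs3 untreated.

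Stat2, the STAT protein of ISGF3, read 4.46, 4.38 and 2.85 in ΔC cells given poly(I:C) and 1.63, 1.54 and 0.91 in untreated ΔC cells. It read 5.47, 5.45 and 4.54 in WT cells given poly(I:C) and 1.18, 1.11 and 0.24 in untreated WT cells. Treated and untreated arrays did not overlap in either genotype, and every treated ΔC array lay below every treated WT array, the nearest pair reading 4.46 and 4.54. Such a lack of overlap between treated ΔC and WT arrays held for 40.6% of all genes. Between treated and untreated arrays it held for 17.7% of all genes in ΔC and 30.6% in WT cells. Stat2 rose by 2.54 ± 0.46 in ΔC cells (n = 3 arrays per group, interval 1.53 to 3.55, adjusted p = 0.0189) and by 4.31 ± 0.46 in WT cells (interval 3.29 to 5.32, adjusted p = 0.000347). Between arrays of the same number, the response was 2.83, 2.84 and 1.95 in ΔC cells and 4.28, 4.34 and 4.30 in WT cells. The WT response was thus nearly the same in each experiment, while experiment 3 gave the smallest ΔC response. Among arrays scanned on 1 day the response was 2.88 in ΔC cells and 4.35 in WT cells. The ΔC pair numbered 1 (2.83) shared slide 1 and the WT pair numbered 2 (4.34) shared slide 2, so that within-slide values add nothing to these pairs. The ΔC call did not hold when slide (adjusted p = 0.0904) or scan day (0.0543) was blocked, when the fit held the ΔC arrays alone (0.0968), or without each untreated ΔC array (0.0556, 0.0667 and 0.0549 for arrays 1, 2 and 3) or treated ΔC array 1 (0.0945) or 2 (0.0914). Neither did it hold on the authors' table with its mismatched column (0.581) or without it (0.0795). The estimate was 2.43 with slide blocked and 2.69 with scan day blocked.

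The mean Stat2 level of ΔC cells lay below that of WT cells with poly(I:C) and above it without. ΔC minus WT was -1.25 ± 0.46 with poly(I:C) (interval -2.27 to -0.24), which did not pass (adjusted p = 0.078), and in untreated cells it was 0.51 ± 0.46 (adjusted p = 0.451). Between arrays of the same number it was -1.0, -1.07 and -1.69 with poly(I:C) and 0.45, 0.43 and 0.67 without it. All 3 experiments therefore had the same pair of signs. Among arrays of 1 scan day the values were -1.0 with poly(I:C) and 0.47 without it. The response in ΔC cells minus that in WT cells was -1.77 (interval -3.20 to -0.34, unadjusted p = 0.0204, adjusted p = 0.721). Under the replicate block, the genotype difference with poly(I:C) passed (adjusted p = 0.00178), as did the difference between the responses (adjusted p = 0.0373). Without WT poly(I:C) array 3 the genotype difference with poly(I:C) was also called (adjusted p = 0.047).

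Stat3, which acts downstream of interleukin 6 family cytokines, read 3.10, 3.14 and 2.84 in ΔC cells given poly(I:C) and 3.12, 2.74 and 2.68 in untreated ΔC cells. It read 3.86, 3.69 and 2.61 in WT cells given poly(I:C) and 3.08, 2.75 and 2.48 in untreated WT cells. In WT cells, treated arrays 1 and 2 lay above every other array and treated array 3 lay among the untreated ones. The response was 0.18 ± 0.30 in ΔC cells (adjusted p = 0.872) and 0.62 ± 0.30 in WT cells (adjusted p = 0.221). The second Stat3 probe gave 0.04 in the ΔC response and 0.76 in the WT response, also with no call. ΔC minus WT with poly(I:C) was -0.36 (interval -1.03 to 0.31, adjusted p = 0.439). Without WT poly(I:C) array 3, the WT response was called (adjusted p = 0.0135), as was the genotype difference with poly(I:C) (adjusted p = 0.0284).

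Socs1, whose product blocks JAK kinases directly, read 2.55, 2.62 and 1.96 in ΔC cells given poly(I:C) and 0.48, 0.84 and 1.31 in untreated ΔC cells. It read 4.35, 4.38 and 3.88 in WT cells given poly(I:C) and 0.73, 0.75 and 1.92 in untreated WT cells. The 3 treated WT arrays stood above all others and the 3 treated ΔC arrays came next, just above untreated WT array 3. A lack of overlap held for 40.6% of all genes between treated ΔC and WT arrays. Between treated and untreated arrays it held for 17.7% in ΔC and 30.6% in WT cells. Socs1 rose by 3.07 ± 0.34 in WT cells (interval 2.31 to 3.84, adjusted p = 0.000491). With slide blocked the estimate was again 3.07 and was not called (adjusted p = 0.0704). The difference in ΔC cells was 1.5 ± 0.34 (2.83-fold, interval 0.74 to 2.26), which did not pass (adjusted p = 0.065). It passed without untreated WT array 3 (adjusted p = 0.0169), with normexp background correction (0.045), with trend and robust variances (0.0368), with array weights (0.000488), and without all arrays numbered 3 (0.000951). Between arrays of the same number the response was 2.07, 1.78 and 0.65 in ΔC cells and 3.62, 3.63 and 1.97 in WT cells, so that experiment 3 was lowest in both genotypes.

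With poly(I:C), Socs1 was lower in ΔC than in WT cells by a log2 difference of -1.83 ± 0.34 (0.282 of the WT level, interval -2.59 to -1.06, adjusted p = 0.0048). The same-numbered arrays gave -1.81, -1.75 and -1.92, and the arrays of 1 scan day gave -1.82. The 3 experiments thus ran from -1.92 to -1.75, a spread that the SE of the group difference does not measure. Blocking slide removed the call (adjusted p = 0.0944), with an estimate of -1.98. In untreated cells the difference was -0.26 (interval -1.02 to 0.51, adjusted p = 0.629), with 0.09 in experiment 2 and -0.25 and -0.61 in experiments 1 and 3. The ΔC response minus the WT response was -1.57 (interval -2.65 to -0.49, unadjusted p = 0.00865, adjusted p = 0.582).

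Socs3, whose product binds receptors of the interleukin 6 family and inhibits their kinases, read 2.58, 2.43 and 2.34 in ΔC cells given poly(I:C) and 2.71, 2.55 and 2.30 in untreated ΔC cells. It read 3.47, 3.43 and 3.13 in WT cells given poly(I:C) and 3.24, 3.19 and 2.78 in untreated WT cells. All 6 ΔC arrays lay below all 6 WT arrays. Taken 1 comparison at a time, a lack of overlap between the genotypes held for 40.6% of all genes with poly(I:C) and for 37.2% without it. With poly(I:C) ΔC minus WT was -0.89 ± 0.165 (0.539 of the WT level, interval -1.26 to -0.52, adjusted p = 0.00453), and in untreated cells it was -0.55 ± 0.165 (0.682 of the WT level, interval -0.92 to -0.18, adjusted p = 0.0389). The same-numbered arrays gave -0.88, -1.0 and -0.79 with poly(I:C) and -0.53, -0.65 and -0.47 without it. Among arrays of 1 scan day the values were -0.86 and -0.57. The call with poly(I:C) held without each of the 12 arrays in turn, and blocking slide removed it (adjusted p = 0.0524), with an estimate of -0.9. The untreated call was lost with slide (0.135) and scan day (0.0684) as blocks, with median scaling (0.327) or quantile normalization (0.0611), with only untreated arrays in the fit (0.106), with no filter (0.0634), and without 8 of the 12 arrays in turn (0.0525 to 0.129). The authors' table gave 0.134, and 0.0697 without its mismatched column.

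The Socs3 response to poly(I:C) was small in both genotypes. It was -0.07 ± 0.165 in ΔC cells (interval -0.44 to 0.30, adjusted p = 0.911) and 0.27 ± 0.165 in WT cells (interval -0.10 to 0.64, adjusted p = 0.321). Between same-numbered arrays it was -0.12, -0.12 and 0.03 in ΔC cells and 0.23, 0.23 and 0.35 in WT cells. The 2 inhibitors thus shared a lower mean in treated ΔC cells and did not share a called response to poly(I:C).

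**Figure D3:**
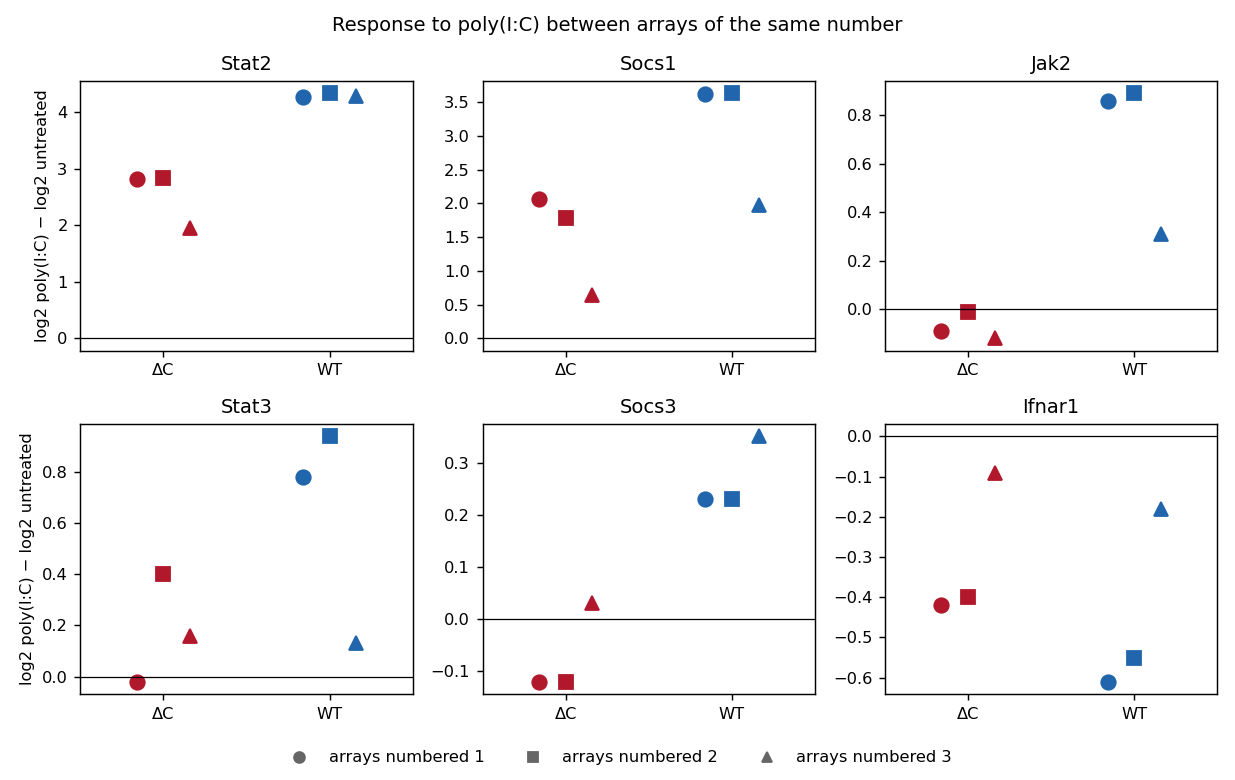
Log2 level with poly(I:C) minus untreated (vertical axis) between arrays of the same number, in ΔC (left) and WT cells (right), for 6 of the genes. Symbols mark array numbers and each panel has its own vertical range. Stat2 gave 1.95 to 2.84 in ΔC and 4.28 to 4.34 in WT cells, and Jak2 gave -0.12 to -0.01 in ΔC and 0.31 to 0.89 in WT cells.

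The arrays numbered 3 stood apart for several members. In all 4 groups, array 3 had the lowest level of its group for Jak2, Stat2, Stat3 and Socs3, which is 4 of 9 members. The same held for 6.36% of all genes (983 genes). Array 3 was the highest of its group in all 4 groups for 0 members and for 11.2% of all genes. The gap between array 3 and the mean of the other 2 arrays of its group ran from -1.57 to -0.68 for Stat2 and from -1.16 to -0.26 for Stat3. For Socs1, array 3 was highest in both untreated groups and lowest in both treated groups. Without the 4 arrays numbered 3, the members called were 2 in the ΔC response and 5 in the WT response. They were 6 between genotypes with poly(I:C), 3 between untreated genotypes and 3 for the difference of the responses. That setting called 1007 of all genes higher and 1022 lower in the ΔC response, and 2001 and 3262 in the WT response. Between genotypes it called 3212 higher and 2614 lower with poly(I:C), and 2752 and 2873 untreated. For the difference of the responses it called 94 higher and 360 lower. With all arrays the totals in either direction were 284, 1046, 3233, 3267 and 3, in the same order. Calls thus rose over all genes too, in each comparison. The file headers place the arrays numbered 3 on slides 4 and 5, and none of them on the scan day that holds 6 arrays. Array number, slide and scan day thus cannot be fully told apart. The labels do not say what set experiment 3 apart, and its part in these results was not tested.

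The other genes of the pathway were read from lists. Of 18 ligands of JAK-STAT receptors tested, 6 rose in ΔC cells and 9 rose in WT cells, and 0 fell. Of all genes, 1.82% were called higher in the ΔC response and 5.24% in the WT response. The median change was 1.21 in ΔC and 2.04 in WT cells, or 1.03 and 1.29 with genes below background on a whole group set at their bound. Ifnb1, the gene of interferon beta, rose in ΔC cells (adjusted p = 1.28e-05) to a mean level of 5.15 ± 0.15 (SD, n = 3), and no fold is given because only 1 of 3 untreated ΔC arrays was above background. In WT cells Ifnb1 was at least 4930-fold higher with poly(I:C). In ΔC cells Ifna4, which encodes an alpha interferon, had a level at least 71.1-fold higher with poly(I:C). Il6, the gene of interleukin 6, was at least 1068-fold higher with poly(I:C) in WT cells and at least 2.38-fold higher in untreated ΔC than in untreated WT cells. Both untreated means of Il6 were low (-4.7 in ΔC and -7.23 in WT cells). The untreated difference shrank to 0.24 with normexp background correction (adjusted p = 0.65), and its call was also lost on the authors' table (0.522). In treated cells, 3 of the 18 ligands were called higher in ΔC than in WT cells and 7 lower, against 11.9% and 9.04% of all genes. Il7, the gene of interleukin 7, was lower (-2.47 ± 0.20), a call that held in each of 26 alternatives. The count of 7 was 1 with slide blocked, with only treated arrays in the fit, or without WT poly(I:C) array 1 or 2, 2 without ΔC poly(I:C) array 1 or 2, 4 without ΔC poly(I:C) array 3, and 3 with scan day blocked. In the ligand response, the count of 9 in WT cells was 4 with slide blocked. The count of 6 in ΔC cells was 4 with slide or scan day blocked, or without untreated ΔC array 1 or 2 or treated ΔC array 1. It was 0 on the authors' table with its mismatched column and 4 without that column.

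Of 31 other cytokine receptor chains tested, 0 passed limma's test in the ΔC response (1 at an unadjusted p under 0.05). In the WT response 5.24% of all genes were called higher, and 1 of the 31 rose. That gene was Il15ra, which encodes the alpha chain of the interleukin 15 receptor (1.05 ± 0.17, adjusted p = 0.00482). Its call did not hold with slide blocked (adjusted p = 0.0717) or with only WT arrays in the fit (0.0571). Between genotypes, 3 were higher and 4 lower in ΔC cells with poly(I:C), and 4 were higher and 4 lower without it. These shares of the 31 are near those of all genes (11.9% and 9.04% with poly(I:C), 10.9% and 10.2% without it), and with slide blocked the counts were 1 higher and 0 lower in each comparison. The 4 lower without poly(I:C) were 0 to 2 without single untreated arrays except ΔC array 3. Ifnlr1, a chain of the interferon lambda receptor, was higher in ΔC cells by 3.61 ± 0.58 with poly(I:C) and by 3.18 ± 0.58 without it. Epor, the erythropoietin receptor, was higher in ΔC cells by 2.4 ± 0.22 with poly(I:C) and by 2.52 ± 0.22 without it. Il13ra1, a chain of the interleukin 13 receptor, was lower in treated ΔC cells by a log2 difference of -2.51 ± 0.43. With slide blocked, the calls of Ifnlr1 (adjusted p = 0.0687 with and 0.103 without poly(I:C)) and of Il13ra1 (0.0627) were lost and that of Epor held.

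Of the other JAK and STAT genes and Irf9, Irf9, which encodes the DNA-binding partner of STAT2 in ISGF3, rose in both genotypes. Irf9 rose by 2.24 ± 0.20 in ΔC cells (adjusted p = 0.000307) and by 3.19 ± 0.20 in WT cells (adjusted p = 1.6e-05). In treated cells it was lower in ΔC than in WT cells, by -0.70 ± 0.20 (adjusted p = 0.0352). That call was lost in 11 of 26 alternatives, among them slide (0.142) and scan day (0.206) as blocks and without WT poly(I:C) array 1 (0.0896), 2 (0.111) or 3 (0.0611), ΔC poly(I:C) array 3 (0.0639) or ΔC untreated array 2 (0.0512). Jak3, Stat5a, Stat5b and Stat6 passed in no comparison. Irf9 and Stat2 both had lower means in ΔC than in WT cells after poly(I:C), with the Stat2 difference short of the threshold.

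Of the 6 other SOCS genes, 1 rose in each genotype, against 1.82% of all genes called higher in ΔC and 5.24% in WT cells. Cish, an inhibitor of STAT5 signalling, rose by 1.02 ± 0.19 in ΔC cells and by 1.81 ± 0.19 in WT cells, and unlike Socs1 and Socs3 it was higher in ΔC than in WT cells, by 1.0 ± 0.19 with poly(I:C) and by 1.79 ± 0.19 without it. The ΔC response of Cish was lost in 11 of 26 alternatives, among them without each untreated ΔC array or treated ΔC array 1 or 2 (0.0617 to 0.0937), and its difference in treated cells with slide blocked (0.0885). Of 11 other inhibitors, Usp18, whose product binds IFNAR2 and shuts off the receptor, rose by 4.80 ± 0.50 in ΔC cells and by 7.83 ± 0.50 in WT cells. In treated cells Usp18 was lower in ΔC than in WT cells by -2.01 ± 0.50 (adjusted p = 0.0181), as was Ptpn2, the gene of a phosphatase that acts on JAK1 and STAT proteins, by -0.69 ± 0.17 (adjusted p = 0.0173). Both calls were lost with scan day blocked (0.0763 for Usp18 and 0.122 for Ptpn2) and without WT poly(I:C) array 1 (0.0746 and 0.0745) or 2 (0.0674 and 0.0707). That of Ptpn2 was also lost with slide blocked (0.22) and without ΔC poly(I:C) array 1 (0.0596) or 2 (0.0523). Ptpn6, the gene of the phosphatase SHP-1, was higher in ΔC cells by 2.29 ± 0.30 with poly(I:C) and by 1.98 ± 0.30 without it.

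Of 22 known targets of ISGF3, 15 rose in ΔC cells and 22 rose in WT cells, against 1.82% and 5.24% of all genes called higher. Their median change was 3.36 in ΔC and 6.47 in WT cells. Rsad2, the gene of the antiviral enzyme viperin, rose by 6.15 ± 0.52 in ΔC cells and was at least 1134-fold higher with poly(I:C) in WT cells. After poly(I:C), 16 of 22 were lower in ΔC than in WT cells and 0 higher, with a median of -2.21, against 9.04% of all genes called lower. Oas2, an RNA sensor of the oligoadenylate synthetase family, led them (-4.78 ± 0.66). In untreated cells, 5 of 22 were higher in ΔC and 0 lower (median 0.63), led by Psmb8, a subunit of the immunoproteasome (4.54 ± 0.61). Of all genes, 10.9% were called higher there and 21.2% in either direction. The count of 5 was 4 with slide blocked or without untreated WT array 1 or 3. It was 3 without untreated WT array 2 or untreated ΔC array 1 or 2, and 1 on the authors' table with its mismatched column. By experiment, the median response of the 22 targets was 3.84, 4.01 and 2.62 in ΔC cells and 6.83, 6.81 and 5.46 in WT cells, so that experiment 3 gave the lowest value in both genotypes, unlike the WT response of Stat2. The difference between the responses had a median of -2.59. By limma 0 of the 22 passed after adjustment, with 22 at an unadjusted p under 0.05, 7 called with the replicate block and 13 called without WT poly(I:C) array 3. The count of 15 in ΔC cells dropped to 7 when slide was blocked, and the count of 16 dropped to 10 when slide was blocked or only treated arrays were in the fit, and to 9 without WT poly(I:C) array 1 or array 2.

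Of 17 known targets of STAT3, 5 rose in ΔC cells and 9 rose in WT cells, against 1.82% and 5.24% of all genes called higher, with medians of 0.75 and 0.81. The count of 5 was 0 with slide blocked, 2 with scan day blocked, 3 without untreated or treated ΔC array 2, and 9 without WT poly(I:C) array 3. The count of 9 was 2 with slide blocked, 4 with scan day blocked, and 5 without WT poly(I:C) array 1 or 2. After poly(I:C), 1 was higher in ΔC than in WT cells and 4 were lower, against 11.9% and 9.04% of all genes. These counts were both 0 with slide blocked, and 0 and 2 without either treated array 1 or either treated array 2. The 1 that was higher was Bcl2l1, which encodes an inhibitor of cell death (0.59 ± 0.16), and it was also not called without ΔC poly(I:C) array 3 (adjusted p = 0.0756). Untreated, 2 of the 17 were lower in ΔC cells, a share near the 10.2% of all genes called lower there. They were Timp1, an inhibitor of matrix proteases (-1.73 ± 0.46), and Cebpb, the gene of a transcription factor of the acute phase (-1.33 ± 0.18). Neither was called with slide blocked (0.158 and 0.0511). The Timp1 call was also lost without untreated WT array 1 or 3 or untreated ΔC array 1 or 2 (0.0651 to 0.0995).

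**Figure D4:**
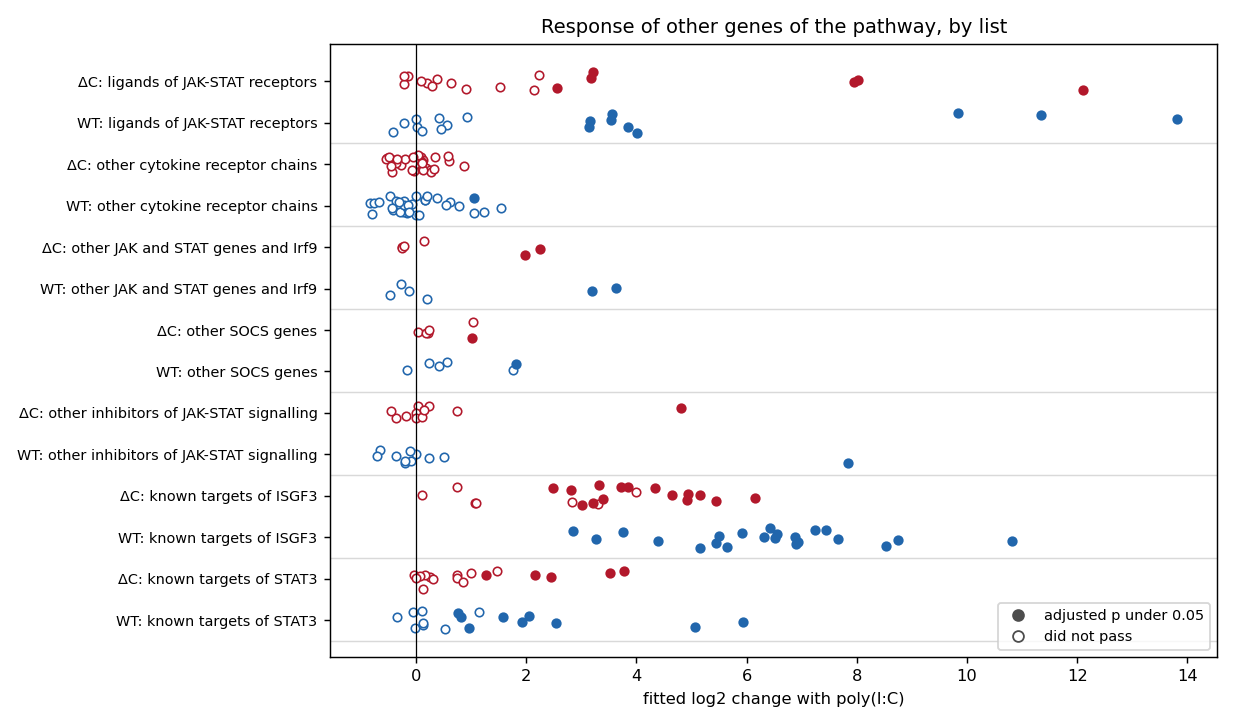
Fitted log2 change with poly(I:C) (horizontal axis) of each tested gene of the 7 pathway lists, with the ΔC row (red) above the WT row (blue) for each list. Filled points passed an adjusted p of 0.05, and changes of genes near background in untreated cells are as fitted, not bounds. The 22 known targets of ISGF3 have a median of 3.36 in ΔC and 6.47 in WT cells.

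The genes whose levels over the 12 arrays were most like those of a member are given as a description, since arrays of a group are not independent of the group. The levels of Stat2 ran closest to those of Ddx58 (Pearson r = 0.996), the RNA sensor RIG-I, and to Oasl2 (0.996) and Trim21 (0.994), both interferon-induced genes. Socs1 ran closest to Oas1f (0.988) and Oas1a (0.987), genes of oligoadenylate synthetases. Socs3 ran closest to Mtss1 (0.977), Phactr1 (0.977) and Sfxn5 (0.969). For the other members the highest r was 0.964 for Ifnar1 with Slc38a9, 0.900 for Ifnar2 with Tyms-ps, 0.921 for Jak1 with Ldhal6b, 0.975 for Jak2 with Itpr2, 0.926 for Tyk2 with Rbm45 and 0.919 for Stat3 with Foxred1. Ddx58, Oasl2 and Oas1a are on the list of ISGF3 targets, and none of the genes named for the other members is on either target list.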

How the data were processed

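RNA of 12 samples was measured on single-colour Agilent arrays. Per the labels' protocols, 200 ng of each RNA was amplified and given a Cy3 label. Per the file headers, the scan software was Feature Extraction 10.7.3.1, and the deposited scanner files hold the processed intensity of 62976 spots, background-subtracted by the authors' scanner software and not normalized between arrays. A second deposited table holds the authors' log2 values, and its 12 columns share a median (5.28) and a highest value (19.1). Its column for ΔC poly(I:C) 1 correlated at 0.949 with its own scanner file and at 0.974 with WT untreated 1, and the other columns at 0.999 or more with their own. That table served as an alternative only. The submitters' processing notes name limma and no steps.

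Control spots and spots with outlier flags (91 to 163 per array) were not used, spots of a probe were averaged, 0 spots were saturated, and 107 probes with only outlier spots on an array were dropped. RefSeq accessions of the reference table named 27235 of 55681 probes. The log2 intensity minus each array's 75th percentile over all probes with a value was tested in R 4.3.3 with limma 3.58.1 (a mean for each group, all 12 arrays, 8 residual degrees of freedom, prior of 2.19, two-sided). A gene was tested when 1 group or more had all 3 arrays well above background for a probe. Where a group had no array above background, a fold is a bound against the lowest signal well above background, per array. Arrays give no read depth, and the 3 arrays per group limit the precision. The script was tested on simulated data.

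In compared groups, same-numbered arrays deviated together from their group means (correlations of 0.115 to 0.651), and the number served as a block in an alternative. Correlations between arrays of different numbers are not given, and whether the numbers pair the samples was not tested. The main model has no block, and values with the replicate block stand where that block changes the call of a member. The file headers place the arrays on 5 slides and 3 scan days, which hold several groups each except for 1 slide with 1 array. Within-slide and within-day values exist only for some arrays. Alternatives were the replicate, slide and scan day blocks, only the groups compared, normexp background correction, median and quantile scaling, no filter, the mean of probes, trend and robust variances, array weights, the authors' table, and leaving out arrays.

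All 9 members are named in every comparison. From each pathway list and comparison, up to 2 called genes that rose most and up to 2 that fell most could be named, and for each member the 3 genes with the highest correlation. The members, lists, motifs and rules were chosen with earlier results of these data known. Of 23 symbols listed as ISGF3 targets, Rigi is the newer symbol of Ddx58. Of the other lists, 8 ligands, 4 receptor chains and Stat4 were not tested. A gene of the list of other JAK and STAT genes is not reported here. Protein sequences were not used here, and the only coordinates given are those of the promoter windows, on the build of the promoter table, since the arrays' build differs from it.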

Additional observations from a re-analysis of the deposited data

Results flagged for a closer look

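2 results were marked because every same-numbered pair of arrays moved one way in one setting and the opposite way in the other. Only the members were searched, and the share of all genes with such signs was not counted. The marks are therefore a description and not a result about the members. For Jak2, the log2 response to poly(I:C) was -0.07 in ΔC cells and 0.68 in WT cells, and each of the 3 pairs was below 0 in ΔC (-0.09, -0.01 and -0.12) and above 0 in WT (0.86, 0.89 and 0.31). By limma the ΔC response had an SE of 0.27 and an adjusted p of 0.947. The test of the difference between the responses gave -0.76 (95% interval -1.62 to 0.10, adjusted p = 0.987).

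For Stat2, ΔC minus WT was -1.25 with poly(I:C) and 0.51 without it, and each pair had those signs. The test of that difference gave -1.77 (adjusted p = 0.721, and 0.0373 with the replicate number as a block).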

How the results depend on the processing

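No value of a called member changed sign under any of the alternatives. Of 1161 gene and alternative combinations, 1025 kept their direction and side of the threshold, 29 lost a call, 41 gained one, and 66 uncalled values changed sign. In the ΔC response (1 member called) the count was 0 for 5 alternatives (blocks for slide or scan day, only the groups compared, the authors' table, and that table without its mismatched column), 2 with normexp or with trend and robust variances, 3 with array weights, 2 without the arrays numbered 3, and 0 to 2 without single arrays. In the WT response (2 called) it was 1 with slide as a block (Socs1 lost), 6 with array weights, 5 without the arrays numbered 3, and 2 to 5 without single arrays (5 without WT poly(I:C) 3). Between genotypes with poly(I:C) (2 called) it was 0 with slide as a block, 5 with array weights, 6 without the arrays numbered 3, and 2 to 5 without single arrays. Between untreated genotypes (1 called) it was 2 with the replicate block, 4 with array weights, 3 without the arrays numbered 3, 0 to 1 without single arrays, and 0 for the same 5 alternatives and for median scaling, quantile normalization and no filter. For the difference of the responses (0 called by limma, 2 at an unadjusted p under 0.05) it was 1 with the replicate block, 3 with array weights, 3 without the arrays numbered 3, and 0 to 0 without single arrays. The replicate block gave Jak2 a call in the WT response and between untreated genotypes, and Stat2 for the difference and between treated genotypes, and it changed no other call of a member. Only the groups compared could not be used for the difference. Calls over all genes ran from 0 (authors' table) to 2670 (array weights) for the ΔC response (284), from 232 (slide) to 6745 (array weights) for the WT response (1046), from 555 (authors' table) to 6931 (array weights) between genotypes with poly(I:C) (3233), from 923 (slide) to 7408 (array weights) between untreated genotypes (3267), and from 0 (slide) to 694 (array weights) for the difference (3). The cause of these shifts was not tested. All member probes were well above background on all 12 arrays.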
